A study of Glycine max with 8 samples.

Results

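The regions described here are WOX9-like binding regions that lie in the middle of soybean chromosomes. Peaks of different libraries became 1 region where at least 50% of the shorter one was shared. A region was kept when both libraries of at least 1 stage had a peak in it. Its midpoint had to lie between 30% and 70% of the extent of its chromosome, taken as the largest peak end on that chromosome over the 4 lists. Chromosome 13 was left out by the rule, which leaves 19 chromosomes. The rule used position and the repeat of a call within a stage, and no value of strength, width or spacing. A call is itself a threshold on significance, and stage class is set by which libraries hold a call. Strength and class are therefore not independent of the rule. The rule gave 5159 regions of the 75046 regions of the 4 lists. Kept regions on the same chromosomes numbered 46911, of which 34298 lay in the outer 20% at each end and 7454 in between.

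The data are chromatin immunoprecipitation with sequencing (ChIP-seq) of soybean (Glycine max) seeds of the cultivar Williams 82, taken whole, cross-linked with formaldehyde and sheared by sonication, with a rabbit polyclonal antibody raised against a peptide of the protein. Seeds 1.7 to 2.1 mm long held heart-stage embryos and seeds 1.0 to 1.5 mm long held globular embryos. Each stage had 2 ChIP libraries, each with its own peak list, and 2 input libraries, which were not analysed here as samples. Plants of both groups were grown in a greenhouse and carried no transgene or treatment that the labels name. Libraries of the same stage are labelled as replicates, with no word on whether separate plants were used, and what separates them may be technical only.

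The protein is named for the WOX (WUSCHEL-related homeobox) transcription factors of plants, which bind DNA through a homeodomain and are known for roles in embryo patterning and in keeping meristem cells dividing. Soybean chromosomes are known for gene-rich arms and a large repeat-rich stretch of compact chromatin around the centromere, which on most of them takes up much of the middle. Transcription factors are generally found at open chromatin near genes, so the few sites within such stretches are of interest in their own right. The middle used here is a fixed share of each chromosome. It was not matched to centromeres, repeats or genes, because the genome build of the files is not named and no sequence or annotation of it was used. For the same reason the sites are given by position only, without their sequence.

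The lists held 60537 and 50579 peaks in heart replicates 1 and 2, and 46027 and 44581 peaks in globular replicates 1 and 2. Read totals are not given in the files. The peak names of globular replicate 2 carry the words BR1 and Input, unlike those of the other libraries, and no label explains them, so results that rest on that library are also given without it. Such seeds hold more than the embryo, namely endosperm and seed coat, which cannot be told apart here, and fewer cells with a bound site cannot be told apart from weaker binding in each cell.

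WOX9-like regions were sparse in chromosome middles. The middles held 14.3 regions per Mb, against 95.01 per Mb in the outer parts, over 361 Mb of each. Pooled over chromosomes the outer parts were thus 6.65 times denser. The middle was the sparser part on 19 of 19 chromosomes, with a median ratio of 0.144 between middle and outer density (98.1% interval of the median 0.113 to 0.183; two-sided exact sign test over chromosomes, p = 3.81e-06, adjusted over 9 measures 1.14e-05). Such a p-value, here and below, takes chromosomes as its units. It says nothing of the spread between seed samples, since every chromosome comes from the same 4 libraries. The densest middle, at 34.4 per Mb, was below the sparsest outer part, at 73.8 per Mb, so the 2 groups of values did not overlap on these 19 chromosomes. Chromosome 13, left out by the rule, went the other way, with 90.5 per Mb in its middle and 74.9 per Mb outside. With it included, the middle was sparser on 19 of 20 chromosomes (exact sign test, adjusted p = 0.00012), and the values overlapped.

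**Figure D1:**
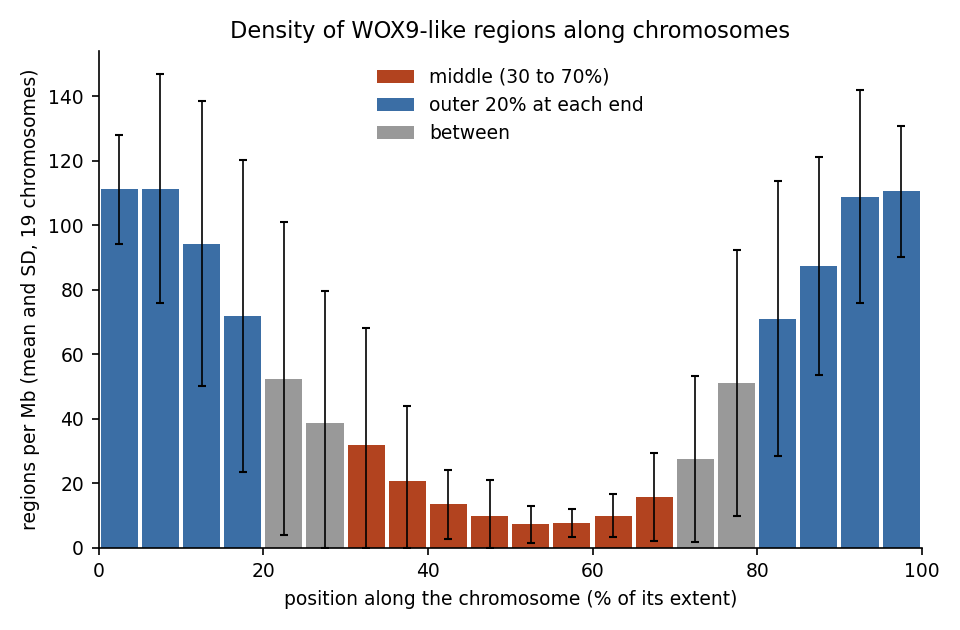
Kept regions per Mb (mean of 19 chromosomes, bars; SD, whiskers, drawn down to 0 at the lowest) in twentieths of the chromosome extent. Density is above 100 per Mb in the first and last twentieth and lowest, at 7.26 per Mb, between 50% and 55%.

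Density fell toward the inside of the middle and was lowest just past its centre. The tenth from 30% to 40% held 2295 regions at 26.3 ± 27.5 per Mb (SD, n = 19 chromosomes). The tenth from 40% to 50% held 1041 at 11.7 ± 9.57 per Mb. The tenth from 50% to 60% held 659 at 7.52 ± 3.85 per Mb, and that from 60% to 70% held 1164 at 12.8 ± 9.78 per Mb. From 30% to 40% the SD was as large as the mean, and in regions per Mb it was the largest of the 4 SDs just given. It was larger still outside the bound, at 44.3 per Mb from 20% to 30%. When chromosomes were cut into twentieths, the sparsest lay inside the middle on 17 of 19 chromosomes. On chromosomes 1 and 3 it lay between 25% and 30%. The sparsest twentieth had no region on chromosome 8 (from 65% to 70%) or on chromosome 17 (from 50% to 55%), and at most 3.99 regions per Mb elsewhere.

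The number of sites in the middle differed between chromosomes. Counts ran from 126 on chromosome 16 to 657 on chromosome 8, with a median of 255. Chromosome 8 had the densest middle, at 34.4 per Mb against 102 per Mb in its outer part. It was followed by chromosome 11 at 23.1 per Mb, chromosome 17 at 23.03 per Mb and chromosome 7 at 22.98 per Mb, 3 values that lie close together. The sparsest middles were those of chromosome 4, at 6.59 per Mb against 97.9 per Mb outside, and of chromosome 10, at 6.79 per Mb against 104.7 per Mb outside. The outer part was 2.97 times denser than the middle on chromosome 8 and 15.4 times denser on chromosome 10. The SD over chromosomes was 7.11 per Mb around a mean of 14.6 per Mb in the middle, and 12.2 per Mb around a mean of 95.8 per Mb outside, so the spread was larger outside in regions per Mb and smaller relative to the mean. At the bounds of the middle nothing changed abruptly: 951 regions lay within 2% inside them and 994 within 2% outside, with median nearest distances of 2539.5 bp and 2578 bp.

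**Figure D2:**
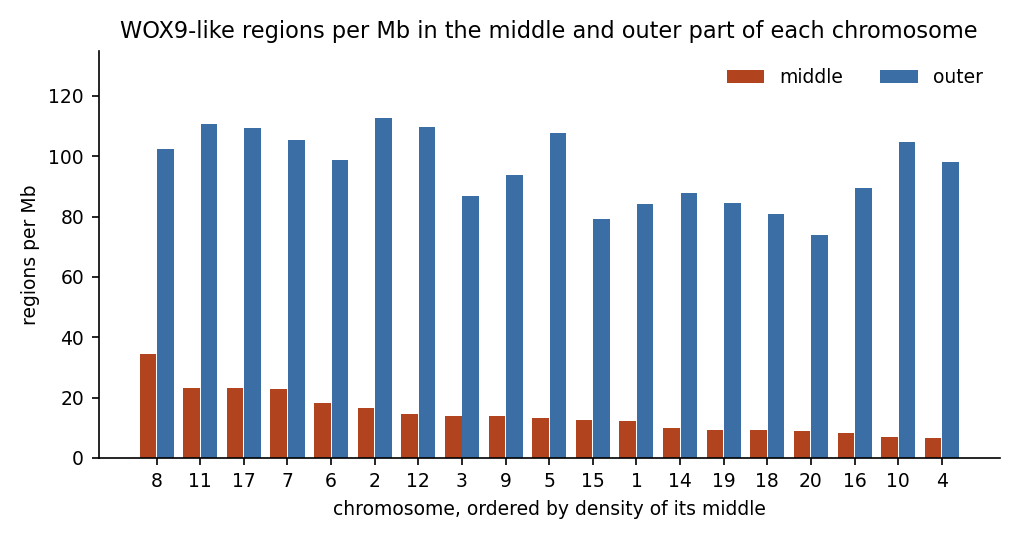
Kept regions per Mb in the middle (left bar) and the outer part (right bar) of each of 19 chromosomes, ordered by the density of the middle. The middles lie between 6.59 and 34.4 per Mb, and the outer parts between 73.8 and 113 per Mb.

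The few sites of the middle still lay close to one another. The median distance from a region of the middle to its nearest kept region, midpoint to midpoint, was 2962 bp, against 2228 bp in the outer parts. Over chromosomes the median distance was 1.45 times larger in the middle (98.1% interval 1.22 to 1.77; larger on 19 of 19 chromosomes; exact sign test, adjusted p = 1.14e-05). That is far less than the ratio of densities, but a median distance and a density are unlike measures. The mean nearest distance, pooled over chromosomes, was 20958 bp in the middle and 4499 bp outside. The ratio of these means, 4.66, was closer to the pooled density ratio of 6.65. The short distances were nearly alike: the tenth percentile was 924 bp in the middle and 919 bp outside, and the 25th percentile was 1365 bp and 1307 bp. The long distances differed, with a 90th percentile of 48326 bp in the middle against 9738 bp outside. The shortest distances seen were 371.5 bp in the middle and 167.5 bp outside. Peaks have a width of their own, and how far this limits the short distances was not tested.

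Shares within fixed distances show the same. A neighbour within 1 kb was found for 12.4% of the regions of the middle and 13.2% of those outside. Within 5 kb the shares were 62.1% and 76.9%, and within 50 kb 90.3% and 99.6%. Of the 5159 regions, 257 (4.98%) had no other kept region within 100 kb, against 34 (0.0991%) in the outer parts.

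To read spacing apart from density, the mean nearest distance was multiplied by 2 and by the density of the part, a nearest-neighbour ratio that is 1 for evenly random placing. It was 0.602 ± 0.0915 in the middle and 0.857 ± 0.0379 in the outer parts (SD, n = 19 chromosomes), and lower in the middle on 19 of 19 (median difference -0.24, 98.1% interval -0.34 to -0.21; exact sign test, adjusted p = 1.14e-05). The ratio also falls where density changes within a part. With the density of each twentieth of the chromosome in its place, an alternative added after seeing the data, it was 0.658 ± 0.0957 in the middle and 0.889 ± 0.0277 outside, again lower on 19 of 19 chromosomes. By this ratio, sites of chromosome middles lay closer together than evenly random placing gives, and more so than sites of the outer parts. Changes of density inside a twentieth also lower the ratio and were not removed. Local grouping was therefore not told apart from such changes.

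**Figure D3:**
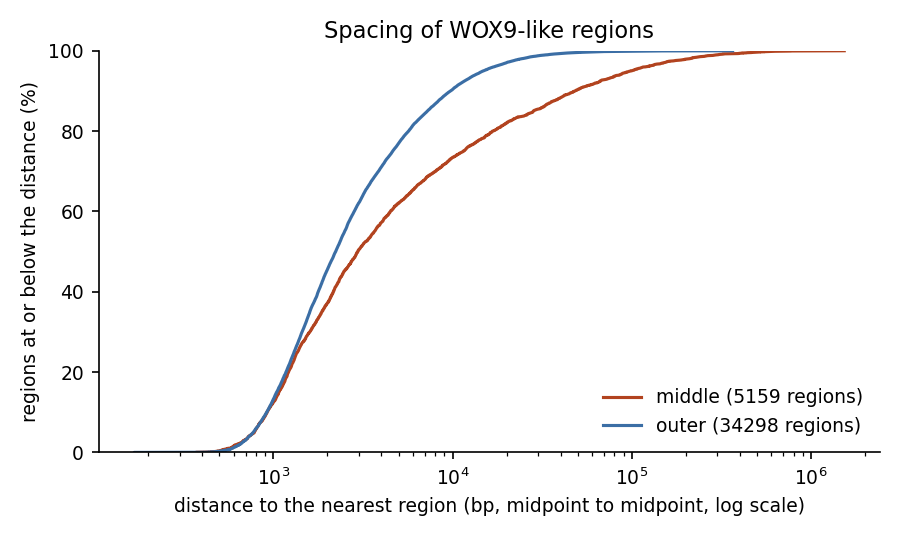
Cumulative share of regions (vertical axis, %) by the distance to the nearest kept region (horizontal axis, bp, log scale), for the middle and the outer parts. The curves run together up to about the 25th percentile (1365 bp and 1307 bp) and part beyond it.

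Linking neighbours up to 5 kb apart gave 3119 groups in the middle, of which 1957 were single regions (37.9% of the members). In the outer parts 23.1% of the regions were single. Groups of 5 or more regions held 588 members (11.4%), against 29.3% of the regions of the outer parts. The 2 largest groups of the middle had 12 regions each. One spanned 25.8 kb on chromosome 6, from 16131446 to 16157216, with 4 regions called in all 4 libraries, 4 heart-only regions and 1 globular-only region. The other spanned 28.4 kb on chromosome 17, from 12503712 to 12532147, with 5 regions called in all 4 libraries and 5 heart-only regions. A group of 11 regions on chromosome 9, from 21474370 to 21495825, lay well inside the middle, at 42.8% of the chromosome.

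Between such groups lay long stretches without a kept region. The middles held 140 gaps over 500 kb, against 9 in the outer parts. The longest was 3008 kb on chromosome 2, from 22304097 to 25311820, where no library had a region of its own either. The next were 2937 kb on chromosome 17, from 20593767 to 23530609, with 3 regions that missed the rule, and 2230.2 kb on chromosome 19, from 24017857 to 26248070, with 1 such region. The longest gap of the outer parts was 947 kb. Whether reads can be placed in these stretches was not tested.

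The most isolated members stood alone by about 1 Mb or more and were weak or middling in their lists. On chromosome 6, the region from 32961089 to 32961581 lay 1530 kb from its nearest kept region, with a fold enrichment of 5.46 and 5.18 in heart replicates 1 and 2 and of 2.58 in globular replicate 1. On chromosome 11, the region from 20347587 to 20348036 lay 1011 kb from the next, with folds of 5.75 and 4.30 in the heart libraries and 3.19 in globular replicate 2. On chromosome 2, the heart-only region from 20504075 to 20504601 lay 973 kb from the next, with folds of 4.51 and 3.13.

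Although sparse, the sites of the middle were about as strong as those outside. Fold enrichment here is the value of the authors' peak caller at the strongest peak of a region. It is compared only within a library. In heart replicate 1 the median fold was 6.02 over 4821 regions of the middle and 6.03 over 31649 regions outside. In heart replicate 2 it was 5.18 in both. In globular replicate 1 it was 5.68 in the middle and 5.98 outside, and in globular replicate 2 it was 3.90 and 3.77. Averaged over the libraries, the difference in log2 fold had a median of -0.02 over chromosomes (98.1% interval -0.04 to 0.04; higher in the middle on 9 of 19; exact sign test, adjusted p = 1). No difference was detected, and the interval bounds it to a few percent of the fold.

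Ranks within the lists gave the same picture for 3 libraries and another for globular replicate 1. The rank percentile is 0 for the strongest peak of a list by -log10 p and 100 for the weakest. Its median in the middle and outside was 39.5 and 39.5 in heart replicate 1, 46.9 and 46.3 in heart replicate 2, 49.2 and 44.6 in globular replicate 1, and 45.1 and 46.2 in globular replicate 2. The mean over libraries differed by a median of 0.775 points over chromosomes (98.1% interval -0.679 to 2.79; exact sign test, adjusted p = 0.462). In globular replicate 1 alone the middle ranked lower in strength, by 4.93 points, on 17 of 19 chromosomes (exact sign test, adjusted over 13 tests 0.00316). In globular replicate 2 the difference was -1.70 points, in the stronger direction on 12 of 19 chromosomes (adjusted 0.519). The effect in globular replicate 1 exceeded that in globular replicate 2 on 18 of 19 chromosomes (median 5.75 points, exact sign test, adjusted 0.000496). The log2 fold of globular replicate 1 was likewise lower in the middle, by a median difference of -0.11 on 15 of 19 chromosomes (exact sign test, adjusted 0.0416), and that of globular replicate 2 was 0.05 higher on 14 of 19 (exact sign test, adjusted 0.118). The choice to test single libraries was made after seeing the data. The globular libraries therefore disagreed on the relative strength of the middle, and what sets them apart was not tested.

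**Figure D4:**
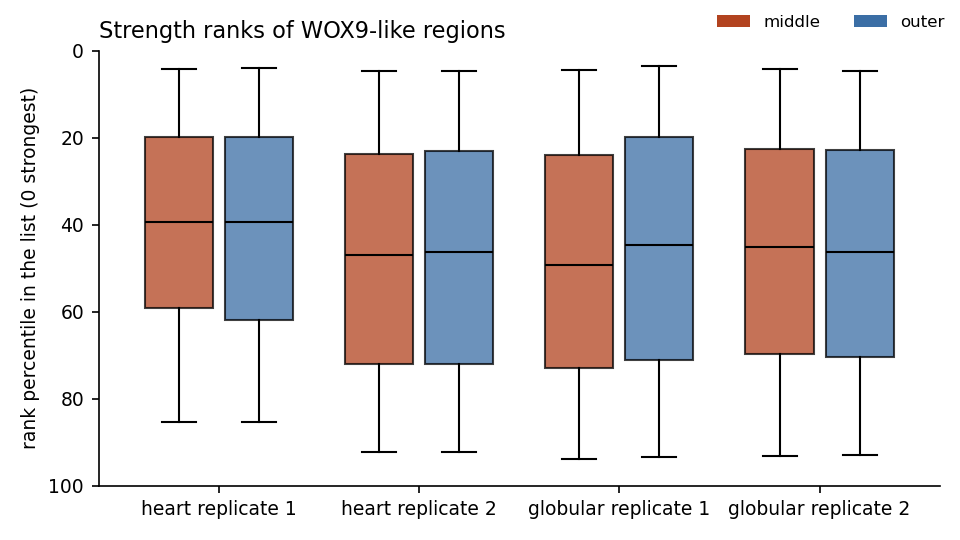
Rank percentile of regions in each list (vertical axis, 0 the strongest, at the top), for the middle (left box) and outer parts (right box). Boxes span the quartiles with the median as a line, and whiskers reach the 5th and 95th percentiles over regions. Medians are 49.2 and 44.6 in globular replicate 1 and lie closer together in the other libraries.

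The strongest sites were found in the middle as well. Among regions called in all 4 libraries, ordered by the worst of their 4 rank percentiles, the middle held 2 of the first 10, 14 of the first 100 and 127 of the first 1000 (12.7%), against 2810 (11.2%) of all 25095. Members in the top 1% of a list numbered 61, 61, 53 and 57 in heart replicates 1 and 2 and globular replicates 1 and 2, or 1.27%, 1.30%, 1.51% and 1.43% of the members each list held. The shares outside were 1.25%, 1.06%, 1.31% and 1.08%. The top 10% of the lists held 12.0%, 9.91%, 11.1% and 10.8% of the members, against 12.8%, 10.9%, 13.4% and 11.0% outside. These shares rest on few regions per chromosome and were not tested.

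The first of these regions was on chromosome 4, from 20432930 to 20433736, at 39.03% of the chromosome, and was the seventh among all regions called in all 4 libraries. Its fold was 35.5 and 30.4 in heart replicates 1 and 2, and 35.7 and 22.9 in globular replicates 1 and 2. A second strong region, from 20430431 to 20431289, lay in the same group, with folds of 32.5 and 26.3 in the heart libraries and 26.1 and 13.9 in the globular libraries. These 2 sites stood on the chromosome with the sparsest middle.

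The second by rank was on chromosome 9, from 20133308 to 20134871, with folds of 34.3 and 32.6 in heart replicates 1 and 2, and of 27.0 and 17.9 in globular replicates 1 and 2. The third was on chromosome 14, from 31387906 to 31389359, with folds of 32.7 and 29.1 in the heart libraries and of 25.8 and 14.7 in the globular libraries. Chromosome 6 held 4 of the first 10, namely 16793075 to 16794768, 19256566 to 19259019, 21473955 to 21475949 and 16154732 to 16156769, the last within the group of 12 regions described above. The others were on chromosome 11 (12745036 to 12746419) and chromosome 5 (27378485 to 27380290). Every list had all 10 among its top 0.866%, and 8 of them had another kept region within 3 kb.

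Peaks of the middle were slightly narrower. Median widths in the middle and outside were 526 bp and 545 bp in heart replicate 1, 452 bp and 469 bp in heart replicate 2, 451 bp and 472 bp in globular replicate 1, and 477 bp and 487 bp in globular replicate 2. Averaged over libraries, the difference had a median of -16.6 bp over chromosomes (98.1% interval -32.3 to -9.75 bp) and was negative on 16 of 19 (exact sign test, adjusted p = 0.00996). It was as large, -15.9 bp, among peaks of like rank (lower on 18 of 19, exact sign test, adjusted p = 0.000172), and was not called between 40% and 60% of the chromosome (-23.5 bp, lower on 12 of 19, adjusted p = 0.462), where 1700 regions lie. In single libraries, a choice made after seeing the data, peaks were narrower on 16 of 19 chromosomes in heart replicate 1 (exact sign test, adjusted over 13 tests 0.0144). The same tests gave 15 in heart replicate 2 (adjusted 0.0416) and 18 in globular replicate 1 (adjusted 0.000496). In globular replicate 2 no difference was called (-11 bp, lower on 13 of 19, exact sign test, adjusted 0.271). Joined regions had a median width of 577 bp in the middle and 608 bp outside. Several peaks of 1 library fell in 350 members (6.78%), against 8.31% of the regions outside.

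The widest members were not the strongest. On chromosome 17, the region from 13472640 to 13479589 was 6950 bp wide, with 1 peak of heart replicate 1, 4 of heart replicate 2, 6 of globular replicate 1 and 3 of globular replicate 2, and folds of 22.3 and 17.05 in the heart libraries and 11.5 and 12.5 in the globular libraries. The next, on chromosome 5 from 13080579 to 13087145, was 1 broad peak in each heart library (6567 bp and 5948 bp, folds 6.19 and 4.72), where globular replicates 1 and 2 had 5 and 3 short peaks (folds 4.78 and 4.02 at the strongest). The third, on chromosome 17 from 20207388 to 20213135, was likewise 1 broad peak in each heart library (5748 bp and 5426 bp, folds 8.12 and 6.93) over 5 and 2 short globular peaks (folds 4.22 and 2.76). It stood 99.5 kb from any other kept region.

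Summits lay about as close together between libraries in the middle as outside, a comparison that was not tested. Between the heart libraries the summits of a region lay a median of 30 bp apart in the middle (4409 regions) and 31 bp outside. Between the globular libraries the median was 36 bp in both parts (3078 regions of the middle). Between heart replicate 1 and globular replicate 2 it was 31 bp and 32 bp. Of all regions before the rule, called in any library, 66.3% of 7777 in the middle met the rule, against 68.2% of 50279 outside.

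The local background behind the called peaks was also alike, as far as it can be recovered. This was done after seeing the data. Under the formulas of MACS2, fold and p fix a pileup and its background, and a whole-number pileup met the given -log10 p within 0.002 for 100% of the peaks used in both globular lists (those whose -log10 p reached 250 were not used). The median background was 5.03 reads in the middle and 5.18 reads outside in globular replicate 1, and 16.9 reads and 17.6 reads in globular replicate 2. Backgrounds over 2 times the lowest level occurred at 2.73% of the members and 2.87% of the regions outside in globular replicate 1, and at 0.0759% and 0.0972% in globular replicate 2. The lowest level was 4.34 reads in globular replicate 1 and 15.2 reads in globular replicate 2, and the difference between the lists was not tested. The heart lists do not give whole-number pileups, and this was not done for them. Backgrounds were seen only at called peaks, and their medians lay near the lowest level of each list. Whether read coverage is lower elsewhere in the middles can therefore not be judged from them.

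The stage classes of the middle were close to those outside. Heart-only and globular-only regions had peaks of both libraries of their own stage and of no library of the other. Absence of a peak is not evidence that the protein was absent there. Of the 5159 members, 2810 (54.5%) were called in all 4 libraries, against 53.1% of the regions outside and 53.5% of all kept regions on the 19 chromosomes. Heart-only regions numbered 982 (19.03%), against 18.17% outside and 18.2% of all. Globular-only regions numbered 308 (5.97%), against 7.04% outside and 6.83% of all. A further 860 (16.7%; 17.1% of all) had both heart libraries and 1 globular library, and 199 (3.86%; 4.38% of all) had both globular libraries and 1 heart library.

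**Figure D5:**
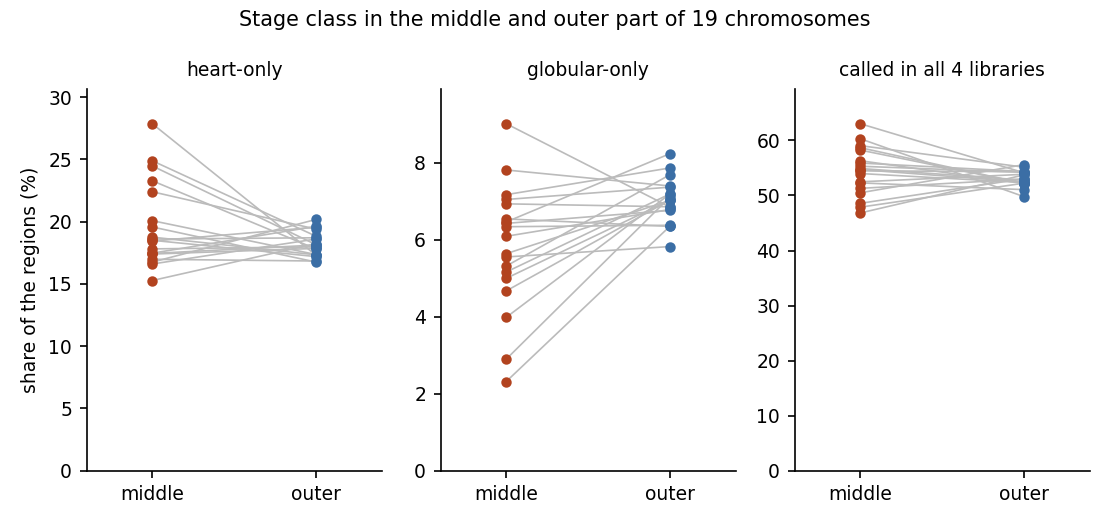
Share of regions (vertical axis, %) that were heart-only, globular-only or called in all 4 libraries, in the middle and the outer part of 19 chromosomes (points, with a line for each chromosome). The globular-only share is lower in the middle on 15 of 19 chromosomes, a call that is lost without either globular library.

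Of these shares, that of globular-only regions differed between the parts, by little. Over chromosomes the median difference was -0.697 points (98.1% interval -2.37 to -0.0381), with a lower share in the middle on 15 of 19 chromosomes (exact sign test, adjusted p = 0.0346). The call was lost without globular replicate 1 (-0.361 points, exact sign test, adjusted p = 0.114) and without globular replicate 2 (-0.00632 points, adjusted p = 1), which also changes the class, since 1 globular library then sets it. It was also lost among regions of like rank (-0.987 points, exact sign test, adjusted p = 0.251), with chromosome 13 included (adjusted p = 0.0745) and between 40% and 60% (adjusted p = 0.143). The heart-only share differed by 0.14 points (98.1% interval -1.12 to 3.01; higher on 10 of 19, exact sign test, adjusted p = 1). The share called in all 4 libraries differed by 1.54 points (98.1% interval -1.69 to 4.14; higher on 13 of 19, exact sign test, adjusted p = 0.251). Among regions of like rank it was 1.94 points higher in the middle, on 16 of 19 chromosomes (exact sign test, adjusted p = 0.00797). Rank here is the best over the libraries that hold a region, which itself depends on class. Class shares among regions of like rank are therefore not independent of the matching.

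Shares on single chromosomes spread more in the middle, where fewer regions stand behind them. Heart-only shares there ran from 15.3% on chromosome 2 to 27.9% of 140 regions on chromosome 10. Globular-only shares ran from 2.32% on chromosome 15 to 9.02% on chromosome 3. On chromosome 4, 63.04% of the members were called in all 4 libraries, the highest share, and on chromosome 20 46.8% were, the lowest. In the tenth from 50% to 60%, where sites were sparsest, 57.7% were called in all 4 libraries, 20.2% were heart-only and 3.95% (26 regions) were globular-only.

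The shares of the classes changed with strength, in the same directions in the middle and outside. Among the strongest 20% of kept regions, by the best of their ranks, 84.6% of 928 members were called in all 4 libraries and 0.216% were heart-only. Among the weakest 20% these shares were 10.2% and 57.1% of 1069 members. The outer parts had 80.7% and 0.298% among the strongest, and 10.1% and 55.4% among the weakest. Globular-only regions went the other way from heart-only ones, with 8.94% of the strongest and 3.84% of the weakest members, against 9.81% and 3.59% outside. The best of several ranks favours regions called in more libraries, so this order is not independent of class. The median percentile of globular-only members was 20.7 in globular replicate 1 and 70.4 in globular replicate 2, that is strong in one list and weak in the other. Outside, the values were 18.9 and 70.8.

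Sites of a single stage stood farther from other sites. In the middle, the median nearest distance was 3758 bp for heart-only regions, 4411 bp for globular-only regions and 2702 bp for regions called in all 4 libraries. Outside, it was 2284 bp, 2890 bp and 2160 bp. The order of the 3 classes was the same in both parts. These medians were not tested.

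The highest-ranked heart-only region of the middle was on chromosome 2, from 15643234 to 15644025, with folds of 10.7 and 8.87 in heart replicates 1 and 2. It was followed by a region on chromosome 9, from 19479132 to 19479597, with folds of 14.1 and 8.58, which lay 229 kb from any other kept region. The third was also on chromosome 9, from 22097015 to 22097816, the fourth on chromosome 8, from 15330802 to 15331251, and the fifth on chromosome 4, from 22478493 to 22479245, 711 kb from the next. None of the first 20 heart-only regions of the 19 chromosomes lay in the middle, and 5 of the first 50 did, against 982 (11.5%) of all 8553.

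The highest-ranked globular-only region of the middle was on chromosome 2, from 14878039 to 14878950, with folds of 13.6 and 7.74 in globular replicates 1 and 2. The second was on chromosome 11, from 15569011 to 15569559, with folds of 20.02 and 7.49. The third was on chromosome 7, from 16671965 to 16672972, with 11.2 and 7.86. The fourth was on chromosome 10, from 31005932 to 31006508, with 25.3 and 6.53, and lay 234 kb from the next kept region. The fifth was on chromosome 11, from 15508574 to 15509234, with 16.1 and 5.52. The first 10 globular-only regions held 4 of the middle, the first 20 held 5 and the first 100 held 7, against 308 (9.62%) of all 3203.

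The share of each library's peaks that lay in the middle was close to 11% in both stages. In heart replicates 1 and 2 it was 11.2% and 11.1%, and in globular replicates 1 and 2 it was 11.1% and 10.9%. The heart mean was 11.1% and the globular mean 11.01%, a difference of 0.133 points (exact two-sided permutation test over the 4 libraries, p = 0.667). The smallest p that 2 libraries against 2 allow is 0.33, so this test could not call a difference. With a -log10 q of at least 5 the difference was 0.257 points, and with equal numbers of peaks 0.271 points, and both heart libraries then lay above both globular libraries (exact permutation p = 0.33 each). They also did so for a middle from 40% to 60%, where the difference was 0.0882 points. The difference was 0.00476 points without globular replicate 2 and 0.26 points without globular replicate 1, so its size rests on single libraries.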

How the data were processed

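The tools named in the submitters' processing notes are MACS2, Bowtie (version 0.12.7) and SAMtools (version 0.1.18). How they were set, which genome build was used and which input served which library is not stated in the labels used here. The authors deposited 1 narrowPeak list per ChIP library. The fold column deposited is a ratio of pileup to local background at the summit, the authors' -log10 p and -log10 q are those of the summit, and the deposited score is 10 times -log10 q, cut to a whole number. The lowest -log10 q was 2.00 to 2.04. Depth is unknown, and no read totals were used.

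From these lists regions were joined, ranked and measured as described above. Where a library had several peaks in a region, its strongest by -log10 p was used. Differences between middle and outer part were taken within a library and chromosome, averaged over libraries, and tested with a two-sided exact sign test over 19 chromosomes with Benjamini-Hochberg adjustment over 9 measures. The exact interval of a median comes from the same test. The functions were tested on simulated sites on a regular grid, with checks of the number kept, density, width, strength and globular-only share. Spacing and the nearest-neighbour ratio were not checked in this way. Python 3.11.15, numpy 2.4.6, scipy 1.17.1 and pandas 2.3.3 were used.

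Regions named are, within the middle, the first 10 called in all 4 libraries and the first 5 heart-only and globular-only regions by worst rank percentile, the 3 widest, the 3 most isolated and the 3 longest gaps. The largest groups were chosen after their values were seen. The members, measures and alternatives were chosen with earlier results of these data known. The labels give both stages replicate numbers 1 and 2 without saying that a number marks a shared batch.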

Additional observations from a re-analysis of the deposited data

Results flagged for a closer look

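Chromosome 13 was outside the comparison and went the other way. Its middle held 1658 kept regions, or 90.5 per Mb, against 74.9 per Mb in its outer part, a ratio of 1.21, above 1, unlike any of the 19 chromosomes compared. The median nearest distance there was 2365 bp, and 54.6% of these regions were called in all 4 libraries, 17.4% were heart-only and 6.76% globular-only. The cause was not tested.

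Unplaced scaffolds, which have no middle, held 280 kept regions on 51 scaffolds, of which 175 were called in all 4 libraries. They took 0.558% of the list in either heart library, 0.576% in globular replicate 1 and 0.579% in globular replicate 2. Both results are signals in data that the comparison left out.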

How the results depend on the processing

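Density, nearest distance and nearest-neighbour ratio kept their direction and call under every alternative run for them (11, 12 and 13). Width did so under 12 of 13 and was not called for a middle from 40% to 60% (-23.5 bp). The globular-only share was no longer called for a middle from 40% to 60% (-2.64 points), with chromosome 13 (-0.696), among regions of like rank (-0.987), or without globular replicate 1 (-0.361) or globular replicate 2 (-0.00632); it was still called without heart replicate 1 (-1.15) or heart replicate 2 (-1.27). The share called in all 4 libraries was called only among regions of like rank (1.94 points), where the rank matched on depends on class. It ranged from -0.0539 to 0.755 without single libraries. Values near 0 that no setting called changed sign: log2 fold for a middle from 40% to 60% (0.0028) and an outer 10% (0.0037), and from -0.0248 to 0.0083 without single libraries; the heart-only share with summits within 100 bp (-0.553 points) and an outer 10% (-0.0722), and from -0.389 to 1.298 without single libraries; and the rank difference from -0.589 to 1.677 points without single libraries. In these the cause was not tested. Leaving out a library also loosens the rule, so that 5527 to 6503 regions then lie in the middle.

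With a replicate block the stage difference in the share of peaks was 0.133 points. With 2 libraries per stage it must equal the value without the block, so this is no check of it. Heart minus globular was 0.0451 points for replicate number 1 and 0.22 points for replicate number 2. Replicate differences in log2 fold had a Pearson correlation of -0.04 between stages across 25095 regions, which share libraries and are not independent. Depth is not given, so regions below the calling threshold cannot be judged.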
